A study of Mus musculus with 16 samples.

Results

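NF-kB is a family of transcription factors that act as dimers of Rel proteins. In resting cells the dimers are held in the cytoplasm by IkB inhibitors, and signals from cytokine and Toll-like receptors activate kinases that mark the inhibitors for destruction, after which the dimers enter the nucleus. Several of the genes they switch on encode their own inhibitors, so the messages of these feedback genes are commonly read together with those of the factors. In kidney tubule epithelium the pathway is known for control of chemokines, adhesion molecules and survival genes. The 10 genes described here were taken by name from the gene table. They are the factors *Nfkb1*, *Nfkb2*, *Rela* and *Relb*, the cytoplasmic inhibitors *Nfkbia* and *Nfkbie*, the nuclear IkB proteins *Nfkbiz* and *Bcl3*, the ubiquitin-editing enzyme gene *Tnfaip3* (A20) and the ubiquitin ligase gene *Birc3* (cIAP2). All 10 were found among 53354 genes of the TPM table and 54393 genes of the count table, and all 10 were among the 13234 genes that passed the filter on low counts.

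The samples came from mIMCD3 cells, a mouse line from the inner medulla of an SV40 transgenic animal, labelled as wild type, so every group carried the same transgene. Cells were grown to confluence on permeable filters in RenaLife medium with serum and a supplement that holds hydrocortisone, epidermal growth factor, insulin and gentamicin, which all groups received. They were then given doxycycline (DOX) at 2 µg/mL, or the solvent DMSO, for 3 or 6 days. Each of the 4 groups (DMSO 3 days, DOX 3 days, DMSO 6 days, DOX 6 days) had 4 libraries, 16 in all, and the question was how DOX, the common inducer of tetracycline-controlled genes, alters the messages of these cells.

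Totals per library ran from 16933343 to 23960860 estimated counts, at which 3 counts correspond to 0.125 to 0.177 CPM (counts scaled to a common library total), and replicates of a group correlated at 0.9811 to 0.9924 in log2 CPM. Nothing in the labels says that the replicates were separate cultures, so p-values measure only the spread between these libraries, which may be technical. The label of an epithelial line was checked against its markers, and all 6 epithelial genes examined were measured, with a summed level of 2980 to 3440 CPM in DMSO-treated and 2260 to 2510 CPM in DOX-treated libraries. The 5 principal cell genes examined, among them the water channel *Aqp2* and the urea transporter *Slc14a2*, did not pass the filter, and their sum stayed between 0.66 and 3.25 CPM. Of 8 immune cell genes, 2 passed the filter, *Cd14* and *Csf1r*, and the list's sum was 34.1 to 45.2 CPM with DMSO and 19.3 to 27.0 CPM with DOX. The pan-leukocyte gene *Ptprc* averaged 0.218 TPM with DMSO and 0.0832 TPM with DOX, and *Adgre1*, *Lyz2* and *Cd3e* had a highest value of 0.176 TPM or less. The sum of 6 fibroblast and endothelial genes was 1.16 to 2.82 CPM over all libraries. The part of these marker differences in the results below was not tested, and in bulk RNA fewer cells of a type and less RNA per cell cannot be told apart.

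Some of the 10 promoters hold the kappa B element that Rel dimers bind, and upstream matches are shown because this element is the one through which NF-kB is known to act on its targets. RefSeq promoters for GRCm38.p6, from 250 bases before to 50 bases after each start, were searched on both strands for the decameric kappa B consensus. The table held 7 of the 10 genes, with no entry for *Nfkb1*, *Relb* and *Nfkbiz*. A match was present in 5 of the 7 (*Nfkb2*, *Nfkbia*, *Nfkbie*, *Tnfaip3* and *Bcl3*) and absent from the windows of *Rela* and *Birc3*. Among all 27025 genes in the table, 5.14% had a match. The sequences are written 5′ to 3′ along the strand of the gene, with the match in capitals. They lie 29 to 20 bases before the start in *Nfkbia* (chr12:55492657-55492686, minus strand), 106 to 97 bases before it in *Nfkbie* (chr17:45555584-45555613, plus strand), 39 to 30 bases before it in *Nfkb2* (chr19:46304688-46304717, plus strand), and 125 to 116 and 12 to 3 bases before it in *Tnfaip3* (chr10:19015516-19015545 and chr10:19015411-19015432, minus strand). *Nfkb2* had 7 matches over 3 promoters, counted on each strand and in each window, so a site can count more than once. The site that reads as a match on both strands is shown. The others include matches 38 to 29 and 11 to 2 bases before the same start and 236 to 227 bases before a second one. The match of *Bcl3* begins 3 bases after the start. A match describes the letters of the window and does not show that a factor was bound.
Nfkbia: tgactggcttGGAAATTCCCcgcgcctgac
Nfkbie: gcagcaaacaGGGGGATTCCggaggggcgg
Nfkb2: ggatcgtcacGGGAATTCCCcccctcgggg
Tnfaip3, distal: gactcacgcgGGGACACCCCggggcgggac
Tnfaip3, proximal: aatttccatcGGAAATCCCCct

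In DMSO-treated cells *Rela*, *Nfkbia*, *Nfkb1* and *Nfkb2* were the most abundant messages of the 10. Levels are compared in TPM, which scales counts by transcript length and library total, averaged over the 8 DMSO-treated libraries. *Rela*, the p65 subunit, stood highest at 79.3 TPM ± 8.17 (SD, n = 8), followed by *Nfkbia*, which encodes IkB alpha, at 58.7 ± 4.59, *Nfkb1* (p105 and p50) at 50.1 ± 4.33 and *Nfkb2* (p100 and p52) at 44.3 ± 4.06. *Rela* did not overlap *Nfkbia* in any library, whereas *Nfkbia* and *Nfkb1*, and *Nfkb1* and *Nfkb2*, overlapped. A second tier comprised *Nfkbiz* at 26.5 TPM ± 3.29, *Birc3* at 19.5 ± 3.95, *Relb* at 18.8 ± 1.34, *Bcl3* at 14.3 ± 2.33 and *Tnfaip3* at 11.6 ± 1.21 (SD, n = 8). Each gene of this tier overlapped the next one down, and *Nfkbiz* lay below *Nfkb2* in every library. *Nfkbie*, which encodes IkB epsilon, was the lowest at 2.63 TPM ± 0.332 and was separated from *Tnfaip3*. Its counts were also the smallest, at 39 to 140 per library, so its values carry the widest errors of the 10.

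**Figure D1:**
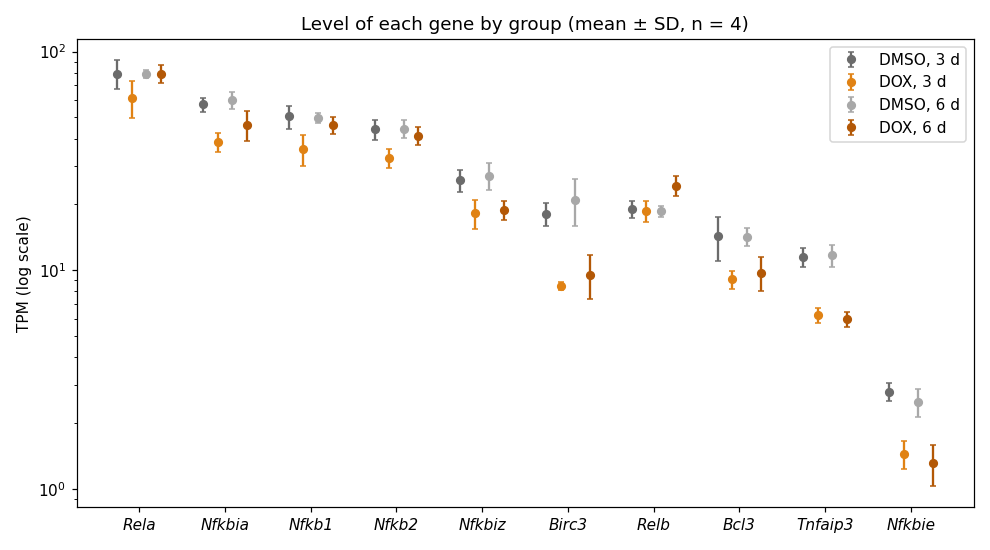
TPM (vertical axis, log scale) of each gene (horizontal axis, ordered by the mean of the DMSO-treated libraries) as mean ± SD of the 4 libraries in each group. *Rela* lies highest near 79.3 TPM with DMSO and *Nfkbie* lowest near 2.63 TPM. In both DOX groups the mean of every gene except *Relb* lies below both DMSO means, by very little for *Rela* at 6 days (79.1 against 79.3 TPM). The mean of *Relb* is highest after 6 days of DOX.

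Of the 10 genes, *Tnfaip3*, *Nfkbie* and *Birc3* fell with DOX at both times, *Nfkbiz* fell at 6 days and *Relb* rose at 6 days. Whether the factors differed as a class from the other genes was not tested. At 3 days *Nfkb1* and *Nfkbiz* both had a log2 fold change of -0.32, and neither had fallen by the rule that follows. A gene is said to have risen or fallen only where it passed an edgeR test for a change of more than 1.2-fold with an adjusted p under 0.05. After 3 days of DOX, 3 of 10 genes had fallen, *Tnfaip3*, *Nfkbie* and *Birc3*, against 7.22% of all tested genes that fell, 5.30% that rose and 12.5% called in either direction. After 6 days, 4 had fallen, *Tnfaip3*, *Nfkbie*, *Birc3* and *Nfkbiz*, and *Relb* had risen, where 11.6% of all tested genes fell, 10.0% rose and 21.6% were called. The median log2 fold change of the 10 was -0.34 at 3 days and -0.33 at 6 days, beside 0.003 and -0.001 over all tested genes. In CPM, DOX-treated libraries lay entirely below DMSO-treated ones for 9 of the 10 genes at 3 days, and at 6 days 6 lay entirely below and 1 entirely above. Groups were separated in this way for 38.6% and 43.0% of all tested genes. Without the 1.2-fold threshold, 10 of the 10 passed at 3 days (9 lower and *Relb* higher) and 7 at 6 days, against 45.2% and 50.6% of all tested genes. In TPM *Relb* was not higher at 3 days, with means of 19.0 with DMSO and 18.7 with DOX.

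**Figure D2:**
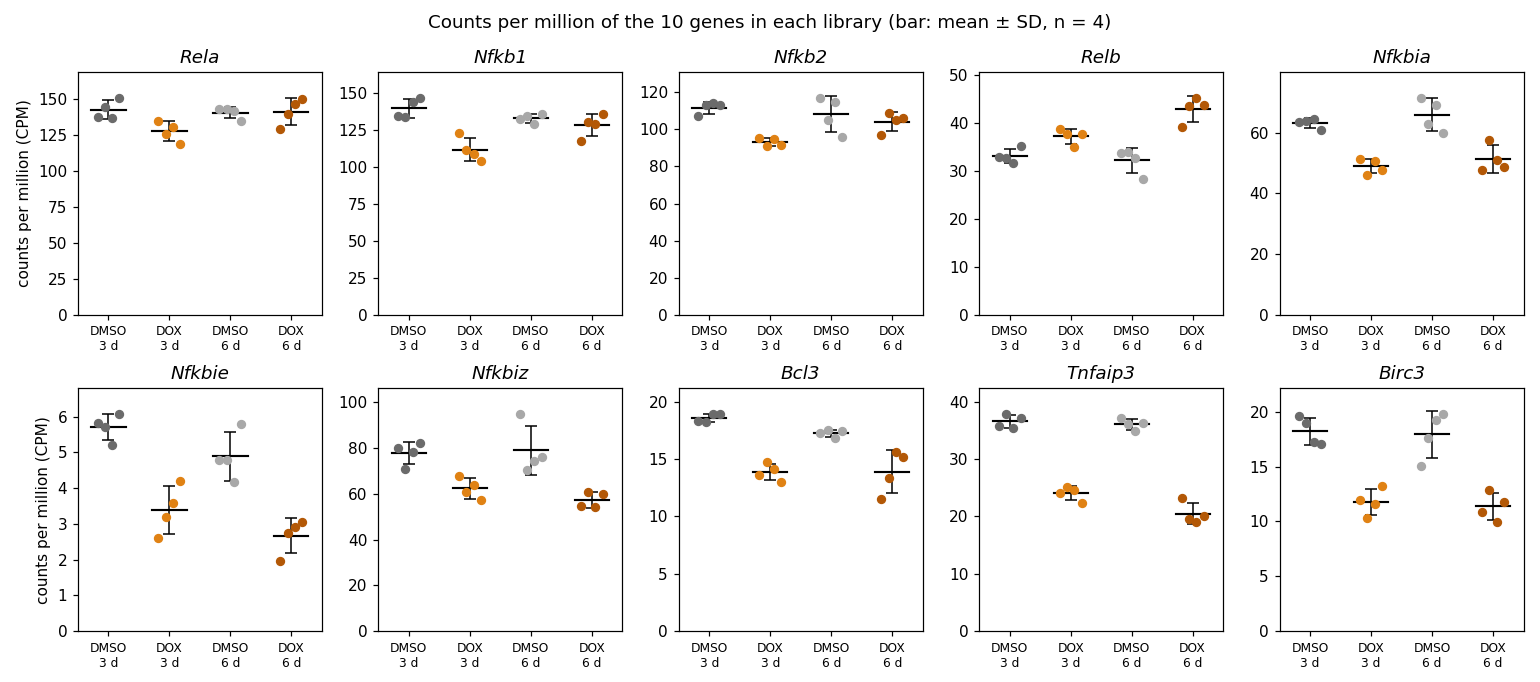
CPM (vertical axis, starting at 0) of each gene in the 4 libraries of each group, with bars for the mean ± SD. The DOX-treated libraries of *Tnfaip3*, *Nfkbie*, *Birc3*, *Nfkbia*, *Nfkbiz* and *Bcl3* lie below those with DMSO at both times, and those of *Relb* lie above at 6 days.

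*Tnfaip3* had the smallest p of the 10 genes at both times. A20 removes activating ubiquitin chains from signalling proteins of the pathway and is one of its main brakes. After 3 days the DMSO-treated libraries held 35.8, 37.8, 35.4 and 37.2 CPM and the DOX-treated libraries 24.0, 25.1, 24.6 and 22.3 CPM. After 6 days the values were 37.1, 36.1, 34.8 and 36.3 CPM with DMSO and 23.2, 19.6, 19.0 and 20.1 CPM with DOX. The groups were wide apart compared with the spread within them. The log2 fold change was -0.61 (adjusted p 7.12e-05, SE 0.0639) at 3 days and -0.82 (adjusted p 7.90e-08, SE 0.0643) at 6 days, a level 43.3% below that of DMSO.

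*Birc3* encodes a ubiquitin ligase that acts at the tumour necrosis factor receptor and limits cell death. It measured 19.6, 19.0, 17.3 and 17.1 CPM with DMSO and 12.0, 10.3, 11.6 and 13.2 CPM with DOX at 3 days. At 6 days the DMSO-treated libraries gave 15.1, 17.6, 19.3 and 19.8 CPM and the DOX-treated libraries 10.9, 12.9, 9.97 and 11.8 CPM. The gene fell at both times with nearly equal size, by a log2 fold change of -0.63 (adjusted p 0.00209, SE 0.0978) at 3 days and -0.65 (adjusted p 0.000579, SE 0.0973) at 6 days. On the log2(TPM + 1) scale its differences were larger, -1.0 and -1.05. The effective length implied by its counts and TPM was 1.21-fold and 1.33-fold longer with DOX, although the groups overlapped in that length. Its estimated counts were fractional in all 16 libraries, as salmon gives where reads fit the sequence of more than 1 gene, and its size is less certain than that of *Tnfaip3*, whose counts were whole throughout.

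Of the cytoplasmic inhibitors, *Nfkbie* fell at both times. With DMSO it measured 5.81, 5.71, 5.20 and 6.07 CPM at 3 days and 4.80, 4.78, 4.16 and 5.80 CPM at 6 days. With DOX it measured 2.60, 3.18, 3.57 and 4.20 CPM at 3 days and 1.96, 2.75, 2.92 and 3.04 CPM at 6 days. No DOX-treated library reached the lowest DMSO-treated library of its day. The log2 fold change was -0.75 (adjusted p 0.00629, SE 0.152) at 3 days and -0.87 (adjusted p 0.000942, SE 0.156) at 6 days, the largest fold of the 10 genes with the largest error. With limma on log2(TPM + 1), which compresses low values, neither time passed (adjusted p 0.0729 and 0.0652).

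*Nfkbia*, the most abundant inhibitor, was lower in CPM with DOX in every library but did not pass the 1.2-fold test. Its protein is the rapidly renewed partner of p65 dimers. The DMSO-treated libraries held 63.6, 63.7, 64.6 and 60.7 CPM at 3 days and the DOX-treated ones 51.3, 46.1, 50.5 and 47.8 CPM. At 6 days the values were 71.4, 62.8, 69.2 and 59.9 CPM with DMSO and 47.5, 57.7, 51.1 and 48.7 CPM with DOX. The CPM ranges did not overlap at either time, and the log2 fold change was -0.37 (adjusted p 0.12, SE 0.0677) at 3 days and -0.36 (adjusted p 0.105, SE 0.0673) at 6 days. In TPM the groups overlapped at 6 days, where DOX replicate 2 had 55.4 and DMSO replicate 2 had 54.3. With an offset for gene length the 3-day value was -0.47 and passed (adjusted p 0.0111), and at 6 days it passed without DMSO replicate 4 (adjusted p 0.0396) or without DOX replicate 2 (adjusted p 0.0208). Under 17 of 20 alternatives at each time *Nfkbia* still did not pass.

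The nuclear IkB proteins bind Rel dimers on DNA and can raise as well as lower transcription. *Nfkbiz*, which encodes IkB zeta, measured 80.1, 70.8, 78.3 and 82.0 CPM with DMSO and 67.6, 60.7, 63.9 and 57.2 CPM with DOX at 3 days. At 6 days it measured 94.8, 70.5, 74.4 and 76.1 CPM with DMSO and 54.5, 60.8, 54.2 and 59.8 CPM with DOX. The log2 fold change was -0.32 (adjusted p 0.364, SE 0.0798) at 3 days and -0.46 (adjusted p 0.015, SE 0.0798) at 6 days, where the gene fell. DMSO replicate 1 of 6 days was the highest of its group, and without it the 6-day value was -0.36 and no longer passed (adjusted p 0.089). It did not pass with DESeq2 (adjusted p 0.113) or limma on TPM either.

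*Bcl3* encodes an IkB-like partner of p50 and p52 dimers. Its DMSO-treated libraries lay between 18.2 and 18.9 CPM at 3 days and between 16.8 and 17.5 CPM at 6 days. With DOX the ranges were 13.0 to 14.7 CPM and 11.5 to 15.6 CPM, below DMSO in every library at both times. The log2 fold change was -0.42 (adjusted p 0.0616, SE 0.0809) at 3 days and -0.31 (adjusted p 0.336, SE 0.0808) at 6 days, neither past the 1.2-fold test. The 3-day value passed with a length offset (adjusted p 0.0127), with the 8 libraries of that day alone (adjusted p 0.0304) and with a stricter filter on low counts (adjusted p 0.0458). Antisense genes *Gm16175* and *Gm16174* overlap *Bcl3*, and whether strand was used in quantification is not given in the sources used here.

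Among the factors, only *Relb* had a higher level with DOX that passed the test, at 6 days. RelB pairs with p52 in the slower, non-canonical branch of the pathway. At 3 days its libraries held 32.9, 32.6, 31.7 and 35.1 CPM with DMSO and 38.7, 37.6, 35.0 and 37.6 CPM with DOX, which overlapped. At 6 days they held 33.8, 33.9, 32.6 and 28.4 CPM with DMSO and 39.1, 43.5, 45.2 and 43.7 CPM with DOX, which did not. The log2 fold change was 0.17 (adjusted p 1.0, SE 0.0657) at 3 days and 0.41 (adjusted p 0.0212, SE 0.0652) at 6 days. The 6-day call was lost with DESeq2 (adjusted p 0.183), with limma on TPM (adjusted p 0.635 with a pseudocount of 1), without DMSO replicate 4 (adjusted p 0.0982) and without DOX replicate 3 (adjusted p 0.0658), while the fold stayed between 0.36 and 0.45 over all alternatives. The 3-day difference was -0.03 on the log2(TPM + 1) scale.

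*Rela*, *Nfkb1* and *Nfkb2* did not pass the test at either time. *Rela* ranged from 137 to 151 CPM with DMSO and from 119 to 135 CPM with DOX at 3 days, and from 135 to 143 and 129 to 150 CPM at 6 days, with log2 fold changes of -0.16 (SE 0.0560) and 0.01 (SE 0.0558). *Nfkb2* ranged from 107 to 114 and 91.1 to 95.3 CPM at 3 days and from 96.1 to 117 and 97.0 to 109 CPM at 6 days, with log2 fold changes of -0.26 (SE 0.0590) and -0.05 (SE 0.0588). Both genes therefore had separated groups at 3 days and overlapping groups at 6 days. *Nfkb1* measured 135, 134, 144 and 147 CPM with DMSO and 123, 112, 109 and 104 CPM with DOX at 3 days, and 133, 135, 129 and 136 against 118, 131, 129 and 136 CPM at 6 days. Its log2 fold changes were -0.32 (adjusted p 0.259, SE 0.0576) and -0.05 (adjusted p 1.0, SE 0.0574). *Nfkb1* shares bases with *Gm43430* on the same strand and had fractional counts in all 16 libraries, and *Nfkb2* overlaps *Psd* and *AC114539.1* on the other strand.

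**Figure D3:**
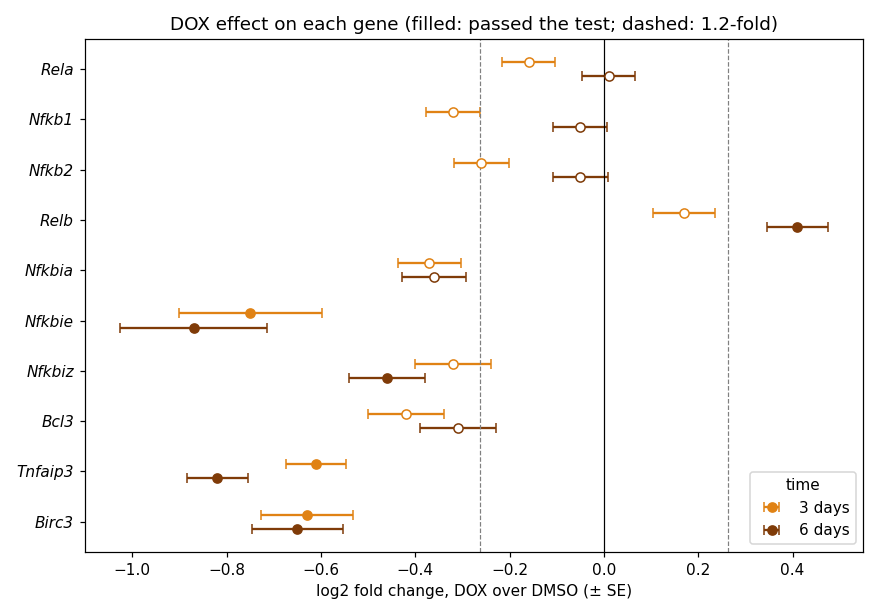
Log2 fold change of DOX over DMSO (horizontal axis) with its SE for each gene at 3 and 6 days. Filled points passed the test for a change of more than 1.2-fold, whose limits are dashed. *Tnfaip3*, *Nfkbie* and *Birc3* are filled on the left at both times, *Nfkbiz* at 6 days only, and *Relb* is filled on the right at 6 days.

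The effects of the 2 treatment times were compared directly by the interaction in the same fit, in which 17.0% of all tested genes were called. That share was 28.7% without DOX 3 days replicate 1, 10.4% without DMSO 3 days replicate 4, 11.1% without DMSO 6 days replicate 2 and 11.3% without DOX 3 days replicate 2. Of the 10 genes, *Nfkb1* was called, with a DOX effect 0.27 higher on the log2 scale at 6 days than at 3 days (adjusted p 0.0292, SE 0.0813). The other factors had differences in the same direction, 0.24 for *Relb* (adjusted p 0.0733), 0.21 for *Nfkb2* (adjusted p 0.089) and 0.17 for *Rela* (adjusted p 0.144). *Tnfaip3* had a difference of -0.21 (adjusted p 0.112), and the remaining 5 lay between -0.14 and 0.11. So *Relb* and *Nfkbiz*, called at 6 days alone, are not shown to differ between the times. The call for *Nfkb1* did not hold with a gene length offset, which gave 0.17 (adjusted p 0.0927) and instead called *Tnfaip3* at -0.33 (adjusted p 0.0298), nor without any of 10 of the 16 libraries, each left out singly (DMSO 3 days replicates 3 and 4, DOX 3 days replicates 2, 3 and 4, DMSO 6 days replicates 2 and 3, and DOX 6 days replicates 2, 3 and 4).

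Gene length moved with the DOX effect at 3 days. Gene length here is the effective length implied by counts and TPM, averaged over libraries. It was available for 13180 of the 13234 tested genes and set to the median for the rest. Across the 13234 genes the Spearman correlation of the log2 fold change with this length was -0.419 at 3 days and -0.021 at 6 days. This is a description across genes, which are not independent replicates. On the log2(TPM + 1) scale the median of all genes fell by 0.15 at 3 days and by 0.05 at 6 days. Relative to those shifts the TPM differences of *Tnfaip3*, -0.78 and -0.86, remained among the larger of the 10, whereas that of *Relb* at 3 days, -0.03, lay above the median. The offset results given above for 3 days are those of *Nfkbia* and *Bcl3*, which the offset added to the calls. Over all settings run, the 3-day log2 difference ran from -0.86 to -0.46 for *Tnfaip3* and from -0.50 to -0.20 for *Nfkb1*. It ran from -0.51 to -0.18 for *Nfkbiz* and from -0.44 to -0.16 for *Nfkb2*. Some settings therefore gave smaller differences than the main fit, and others larger ones. The part of gene length in the 3-day values was not tested beyond that offset.

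Between the 2 times within a treatment, 0 of the 10 genes passed the 1.2-fold test. With DOX the later time was also a longer exposure. Between DMSO at 3 and 6 days this test in edgeR called 0 of 13234 genes, which is 0%, with 172 at an unadjusted p under 0.05. DESeq2 and limma also called 0. Without the threshold edgeR called 62 genes (0.468%), and 0 of the 10. The log2 differences of the 10 ran from -0.22 (*Nfkbie*) to 0.06 (*Nfkbia*). Between DOX at 3 and 6 days 3.94% of genes were called, a share that was 6.91% without replicate 1 of 3 days and 2.48% to 2.58% without replicate 2, 3 or 4 of 3 days or replicate 2 or 3 of 6 days. The 10 were not among them, and their differences ran from -0.34 for *Nfkbie* to 0.20. In that comparison 0 of the 10 had an unadjusted p under 0.05 in edgeR's 1.2-fold test, and DESeq2 and limma also called 0. Without the threshold edgeR called 5 of the 10, 4 of them higher at 6 days, where 30.2% of all genes were called.

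Ratios within a library do not depend on library scaling and show the balance of the messages. *Relb* made up 9.78% ± 0.422 (SD, n = 4) of the summed TPM of the 5 Rel family genes (the 4 factors with *Rel*) after 3 days of DMSO and 12.5% ± 0.960 after DOX. After 6 days its share was 9.56% ± 0.379 with DMSO and 12.7% ± 0.435 with DOX, and the groups did not overlap at either time. At 3 days *Relb* itself averaged 19.0 TPM with DMSO and 18.7 with DOX, while the sum averaged 196 and 150. At 6 days *Relb* averaged 18.6 and 24.4 TPM, and the sum 194 and 192. The share of *Rela* stayed near 40.6% to 41.1% in all 4 groups. For each message of *Rela* there were 0.145 ± 0.0066 of *Tnfaip3* with DMSO and 0.104 ± 0.0211 with DOX at 3 days, and 0.148 ± 0.0209 and 0.0763 ± 0.0129 at 6 days, again without overlap. The ratio of *Nfkbia* to *Rela* was 0.730 ± 0.0633 and 0.634 ± 0.0767 at 3 days and 0.756 ± 0.0348 and 0.588 ± 0.0948 at 6 days (SD, n = 4), with overlapping groups at both times. *Nfkbia* exceeded *Nfkbie* 24.6-fold with DMSO and 36.2-fold with DOX at 6 days, without overlap, and the groups overlapped at 3 days. The ratio of *Nfkb2* to *Nfkb1* ranged from 0.877 to 0.915 in group means, and its groups overlapped.

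Over the 16 libraries the 6 IkB and ubiquitin enzyme genes were positively correlated with each other and negatively with *Relb*. As a description of log2 CPM, with treatment and library shared by all points, *Tnfaip3* had a Pearson r of 0.88 with *Birc3*, 0.87 with *Nfkbiz*, 0.84 with *Nfkbie* and 0.81 with *Nfkbia*. *Relb* had r of -0.89 with *Tnfaip3* and -0.82 with *Birc3*. *Rela* was closest to *Nfkb1* (0.83) and *Nfkb2* (0.78) and had r of 0.26 with *Tnfaip3*. The 6 genes were also positively correlated with *Nfkb1*, *Nfkb2* and *Rela*, with r from 0.26 to 0.81. *Nfkbia* had r of 0.81 with *Nfkb2*, and *Bcl3* had r of 0.76 with *Nfkb1*. Of all tested genes, those most like *Tnfaip3* were *Plat* (tissue plasminogen activator) and *Acsbg1* at 0.986 each and *Gsdma* at 0.978. Those most like *Relb* were *Lrig3* (0.968), *Slc29a1* (0.963) and *Atp2a3* (0.958), and those most like *Birc3* were *Gcnt1* (0.972), *Efnb2* (0.963) and *Pls1* (0.957). For *Nfkbia* they were *Osgin1* (0.945), *Sgk1* (0.941), a kinase gene known to respond to glucocorticoids, and *Ddx23* (0.935), and for *Nfkbie* they were *Tcf19* (0.949), *Man1a* (0.947) and *Fhl3* (0.946). *Bcl3* was most like *Ntn4* and *Slco2a1* (0.946 each) and *Ptpn1* (0.945), and *Nfkbiz* most like *Arhgef1* (0.948), *Srrt* (0.946) and *Spg7* (0.942). *Nfkb1* was most like *Pear1* (0.945), *Map3k11* and *Nacc1* (0.94 each), *Rela* like *Zswim4* (0.932), *Smpdl3b* (0.917) and *Plekhh3* (0.916), and *Nfkb2* like *Polg* (0.91), *Adam15* (0.904) and *Hspa1b* (0.897).

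The rest of the pathway was described by 94 further genes, of which 80 passed the filter. At 3 days 10 of the 80 had fallen and 4 had risen, and at 6 days 7 had fallen and 9 had risen, beside the 7.22% that fell and 5.30% that rose at 3 days and the 11.6% and 10.0% at 6 days among all tested genes. The 16 of 80 called at 6 days lay close to the 21.6% of all genes. Their median log2 fold change was -0.10 and -0.04, nearer to 0 than that of the 10 genes. Of 11 kinases 1 fell at 3 days, *Ikbke* (-0.43, adjusted p 0.0159), and of 15 other inhibitors and deubiquitinases 1 fell at each time, *Itch* (-0.39) at 3 days and *Zc3h12a* (-0.58) at 6 days. *Zc3h12a* encodes an RNase that degrades cytokine messages. *Ikbke* and *Itch* were named after their values were seen, because each was the only gene of its list called at 3 days. The call of *Zc3h12a* was lost under 6 alternatives, with DESeq2 (adjusted p 0.204), with limma on TPM at either pseudocount (adjusted p up to 0.385), without a filter on low counts, without DMSO replicate 1 (-0.49) and without DOX replicate 2 (-0.53). The cytokine ligands were near the limit of measurement. Of 8 listed, only *Tnfsf12* passed the filter, and *Tnf* averaged 0.0562 TPM after 3 days of DMSO and was listed at 0 in every DOX-treated library.

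At 6 days 4 of 14 receptors and 2 of 17 adaptors and ubiquitin ligases had risen and 0 had fallen. Among all tested genes 10.0% rose and 11.6% fell, so the adaptor count lay close to the share of all genes. At 3 days 1 receptor rose and 1 fell, beside 5.30% and 7.22% of all tested genes. Of 14 receptors, *Cd40* rose at both times, by 0.75 (adjusted p 0.00784, SE 0.157) and 1.21 (adjusted p 1.63e-05, SE 0.157), and *Tlr2* rose at 6 days by 0.77 (adjusted p 1.28e-05, SE 0.0872). *Il17ra* (0.62) and *Tlr3* (0.56) also rose at 6 days, and *Tnfrsf1b* fell at 3 days by 0.73 on the log2 scale, 3 genes named after their values were seen. The message of *Cd40* went from 1.37 TPM ± 0.415 with DMSO to 4.07 ± 0.482 with DOX at 6 days (SD, n = 4). Of 17 adaptors and ubiquitin ligases measured, *Myd88* (0.56, SE 0.0835) and *Rbck1* (0.50, SE 0.0619), which encodes a subunit of the linear ubiquitin ligase, rose at 6 days. *Cd40* did not pass at 3 days with DESeq2 (adjusted p 0.0856) or limma on TPM, nor did *Myd88* and *Rbck1* at 6 days with limma on TPM.

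Of 19 measured target genes, 7 fell and 3 rose at 3 days, where 7.22% and 5.30% of all tested genes did, and 6 fell and 3 rose at 6 days, where 11.6% and 10.0% did. The adhesion molecule gene *Vcam1* had the largest change, from 12.0 CPM ± 1.82 with DMSO to 2.25 ± 0.148 with DOX at 3 days and from 8.96 ± 2.71 to 1.76 ± 0.486 at 6 days (SD, n = 4), log2 fold changes of -2.40 and -2.35. The neutrophil chemokines *Cxcl5* (-1.0 and -1.80), *Cxcl1* (-0.62 and -1.21) and *Cxcl2* (-0.93 and -1.11) fell at both times, as did *Plau*, which encodes urokinase (-0.77 and -0.87), and *Tnfaip2* (-0.63 and -0.70). The study singled out chemokines on these same samples, so their direction here is not independent evidence. *Csf1*, the macrophage growth factor gene, rose (0.47 and 1.07), and so did *Lcn2*, the tubular injury marker (0.56 and 0.90), which was abundant at 848 TPM ± 78.2 with DMSO and 1520 ± 127 with DOX at 6 days. At 6 days the called target genes had moved in both directions. *Lcn2* did not pass at 3 days with a length offset or limma on TPM. The 3-day calls of *Csf1*, *Cxcl2* and *Cxcl1* were lost with DESeq2 (adjusted p 0.222, 0.0671 and 0.0598). With limma on log2(TPM + 1) *Csf1* was 0.27 at 3 days (adjusted p 1.0), and *Cxcl2* did not pass at 3 days (adjusted p 0.157) or 6 days (adjusted p 0.0834). The 3-day call of *Csf1* was also lost without DMSO replicate 1, 2 or 3 or DOX replicate 1 or 2 (0.43 to 0.47) and that of *Cxcl2* without DMSO replicate 4 or DOX replicate 2 or 3 (-0.85 to -0.80).

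**Figure D4:**
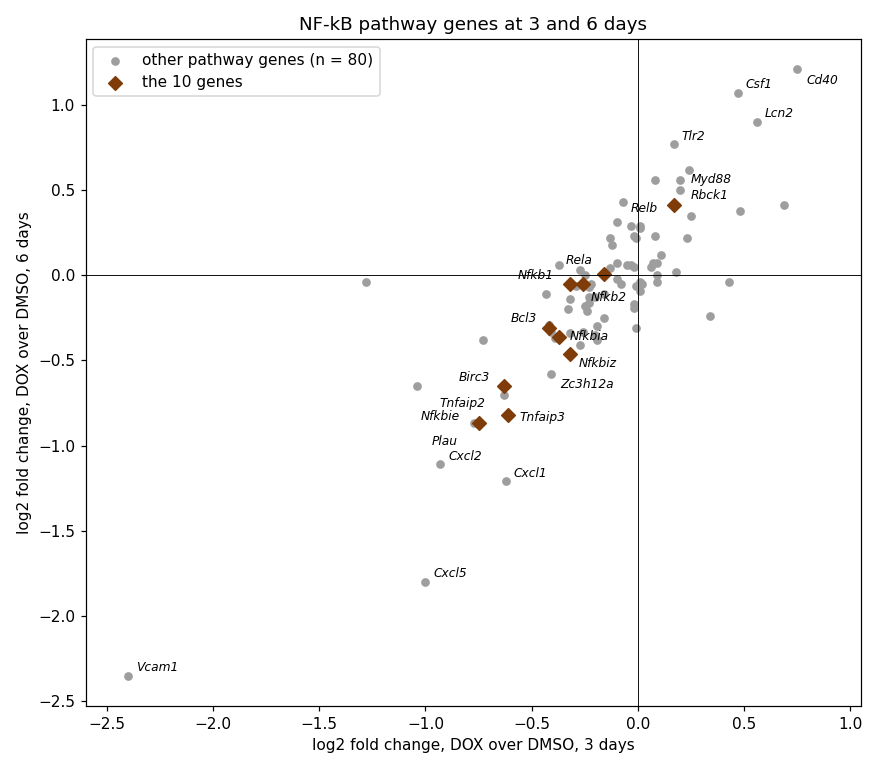
Log2 fold change of DOX over DMSO at 3 days (horizontal axis) and 6 days (vertical axis) for the 10 genes (diamonds) and the 80 other pathway genes that passed the filter (grey points, named where the text names them by rule). *Vcam1* lies farthest to the lower left at -2.40 and -2.35, and *Cd40* farthest to the upper right at 0.75 and 1.21. *Relb* is the diamond above 0 on both axes.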

How the data were processed

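Per the labels and the study's methods, poly(A) RNA of 16 mIMCD3 libraries was sequenced in pairs of reads and aligned to GRCm38.p6, and salmon (0.14.10 in the submitters' processing notes) quantified genes. The authors deposited estimated counts per gene, which are not normalized, and TPM, scaled by the authors for length and library total. The gene annotation release and the use of strand are not given in the sources used here. All count identifiers match GENCODE M21, used for positions.

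Estimated counts were first rounded. Genes with CPM of at least 1 in at least 4 libraries were tested in 1 robust quasi-likelihood fit of 4 group means (edgeR 4.0.16, R 4.3.3, TMM), with glmTreat at 1.2-fold, or glmQLFTest for the difference between times. Tests were two-sided, Benjamini-Hochberg adjusted over all tested genes, with a limit of 0.05. CPM values of genes are TMM-scaled, and those of summed markers are not. SE is the log2 fold change over the root of F. The calculations were tested on simulated data.

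Named genes were the 10, pathway genes called at both times in 1 direction, the 2 largest called changes per list at 6 days, and the 3 tested genes with the highest correlation per gene. Members and lists were chosen with earlier results of these data known. Alternatives were RLE scaling, other filters, no threshold, no robust estimation, a gene length offset, a replicate block, the libraries of 1 comparison alone, DESeq2 1.42.0, limma 3.58.1 on TPM, and leaving out each library.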

Additional observations from a re-analysis of the deposited data

Results flagged for a closer look

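Single libraries stood apart from the other 3 of their group in TPM in 5 of 92 groups examined (23 genes in 4 groups), by Dixon's criterion for the gap to the nearest library, and chance alone flags about 1 in 20 groups. *Nfkb2* had 35.3 TPM in DOX 6 days replicate 1, where the nearest library had 42.7. *Relb* had 21.7 TPM in DOX 3 days replicate 1 (nearest 17.9) and 20.5 TPM in DOX 6 days replicate 1 (nearest 25.4). *Birc3* had 9.05 TPM in DOX 3 days replicate 3 (nearest 8.32), and *Rbck1* had 57.4 TPM in DOX 3 days replicate 1 (nearest 49.0).

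The DOX effect differed between 6 and 3 days, by edgeR's interaction test, for *Nfkb1* by 0.27 on the log2 scale (adjusted p 0.0292), a call that was lost without any 1 of 10 of the 16 libraries. Among the other named pathway genes it was more negative at 6 days for *Cxcl5* (-0.80, adjusted p 0.00573) and *Cxcl1* (-0.59, adjusted p 0.0219). It was more positive for *Csf1* (0.60, adjusted p 0.00416), *Tlr2* (0.60, adjusted p 0.00381), *Myd88* (0.36, adjusted p 0.0417), *Lcn2* (0.34, adjusted p 0.0375) and *Rbck1* (0.30, adjusted p 0.0219).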

How the results depend on the processing

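Of the 10 genes, 3 were called at 3 days, a count that became 10 without a fold threshold and 5 with a gene length offset, with or without the replicate block. At 6 days 5 were called, and 3 with DESeq2, 2 with limma on log2(TPM + 1) and 3 with limma on log2(TPM + 0.1). For the difference between times the 1 call became 0 with a 1.2-fold threshold, with the replicate block and with limma at either pseudocount. Between DOX at 6 and 3 days 5 were called without a threshold, where 30.2% of all genes were. Of the other pathway genes 14 were called at 3 days, and 39 without a threshold, 8 with DESeq2, and 7 and 8 with limma. At 6 days 16 were called, and 41 without a threshold and 9 and 10 with limma. Leaving out each library in turn gave 3 to 4, 4 to 6 and 0 to 4 calls among the 10 for 3 days, 6 days and the difference, and 10 to 16 and 15 to 20 among the others. *Tnfaip3* and *Birc3* kept their calls at both times under every alternative run.

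Values that changed sign were not called in the main setting and were at most 0.20 in size there on the log2 scale. Among the other named pathway genes the largest was *Rbck1* at 3 days, 0.20 in the main setting and -0.01 at its lowest. The difference between times for *Cxcl2* was -0.18 and reached 0.13. *Relb* at 3 days was called higher by edgeR without a fold threshold (adjusted p 0.0402) but was -0.03 with limma at either pseudocount. *Rela* at 6 days was -0.01 with CPM of at least 1 in all libraries and with limma, -0.02 with the length offset with or without the block, and -0.02 to 0.05 with libraries left out. In the difference between times *Birc3* was 0.01 without a filter, 0.09 with the length offset with or without the block, and -0.10 to 0.03 with libraries left out, *Nfkbie* was 0.03 and 0 with limma and -0.23 to 0 with libraries left out, and *Nfkbia* was -0.05 to 0.05 with libraries left out. Where no cause is given, the cause was not tested.

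No pairing of libraries by equal replicate number was detected, which does not show that they were handled separately. Of 16 same-numbered pairs, 1 had deviations that correlated over 0.1 (mean -0.107), and 4 of 16 libraries correlated best with their own number. With the replicate block 3 and 5 of the 10 genes were called at 3 and 6 days. The comparison of the times uses all 16 libraries, so it could not be restricted to fewer. Depth limits *Nfkbie* most, at 39 to 140 counts.

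The share of all tested genes called also moved by over 1.5 times. At 3 days it was 12.5%, and 7.70% with DESeq2, 4.63% and 5.47% with limma at pseudocounts of 1 and 0.1, and 4.90% without a filter. At 6 days it was 21.6%, and 9.01% and 10.1% with limma and 8.54% without a filter. For the difference between times it was 17.0%, and 1.38% with a 1.2-fold threshold, 4.13% and 4.08% with limma and 6.56% without a filter. Between DOX at 6 and 3 days it was 3.94%, and 2.37% with a length offset (1.99% with the block), 1.84% with DESeq2, 0.495% and 0.655% with limma and 1.79% without a filter.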
